A study of Spinacia oleracea with 6 samples.

Results

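The 3 nuclear spinach genes rbcS2, gapA and GOX, which stand at the junction of carbon fixation and photorespiration, were followed by RNA sequencing. They were taken by their NCBI Gene numbers, 110780027 (rbcS2), 110805429 (gapA) and 110805661 (GOX), and all 3 were present among the 32450 genes of the deposited tables. The study compared Spinacia oleracea plants in an illumination incubator under a day temperature of 20 °C and a night temperature of 15 °C (control) with plants given 35 °C days and 25 °C nights (heat), over 4 days, with 3 libraries per regime. The labels give no cultivar, age or tissue. They also do not say whether the libraries of a regime came from separate plants, so the p-values reflect the spread between libraries, and part or all of it could be technical. In bulk RNA, fewer cells of a type and less RNA per cell cannot be told apart.

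Carbon fixation and photorespiration start at the same enzyme. Rubisco, built of large subunits encoded in the plastid and small subunits encoded by a nuclear gene family that includes rbcS2, adds CO2 to ribulose bisphosphate. gapA encodes subunit A of the chloroplast glyceraldehyde phosphate dehydrogenase, which acts in the reduction of the product of that reaction to a sugar phosphate. Rubisco also reacts with oxygen, and the phosphoglycolate formed is recycled by photorespiration. In that pathway glycolate oxidase, the product of GOX, turns glycolate into glyoxylate in the peroxisome. Warmth is known to favour oxygenation relative to carboxylation. RNA levels measure neither enzyme amount nor flux, and no proteins or metabolites were analysed here.

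Transcripts of all 3 genes were lower in heat, with larger fold changes for rbcS2 and gapA than for GOX. Not all carbon fixation genes shared this gap. The 5 tested genes placed by name at the regeneration of ribulose bisphosphate had log2 fold changes from -2.33 to -1.85. This range includes the -2.08 of GOX. rbcS2 was 12.9-fold lower and gapA 12.3-fold lower, whereas GOX was 4.23-fold lower (edgeR's quasi-likelihood test, each past an adjusted p of 0.05). Within a library, the proportion of rbcS2 or gapA to GOX was lower in every heat library than in any control library, while that of rbcS2 to gapA overlapped between the regimes. With 3 libraries per regime, the exact test used for these proportions cannot pass the threshold. For these genes 3992 reads or more were counted in each library, so counting error was small beside the spread between libraries.

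rbcS2 had 3408, 2373 and 2934 CPM (counts brought to one library size, here on the TMM scale, which corrects for library composition) in control libraries 1 to 3. In heat libraries 1 to 3 it had 172, 208 and 293 CPM. The groups did not overlap, and even the nearest pair, control library 2 and heat library 3, differed by -3.02 on the log2 scale. The means were 2905 ± 518 CPM in control and 224 ± 61.9 CPM in heat (SD, n = 3 each), a log2 fold change of -3.69 (SE 0.29, adjusted p = 0.000563 by edgeR's quasi-likelihood test). In heat the level was thus 7.72% of that in control.

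gapA stood at 1393, 1179 and 937 CPM in control libraries 1 to 3. The heat libraries had 82.3, 81.3 and 122 CPM. These groups did not overlap either, and heat library 3 was again the highest of the heat libraries. The mean went from 1170 ± 228 to 95.1 ± 23.1 CPM (SD, n = 3 each), a log2 fold change of -3.62 (SE 0.27, adjusted p = 0.000485 by edgeR), or 8.13% of the control level.

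GOX was the most abundant of the 3 genes in every library. It had 8277, 11491 and 10614 CPM in control libraries 1 to 3. The heat libraries had 2801, 2145 and 2237 CPM. Here control library 1, the highest for rbcS2 and gapA, was the lowest control library, and heat library 1 was the highest heat library. The groups did not overlap. The mean went from 10128 ± 1661 to 2394 ± 355 CPM (SD, n = 3 each), with a log2 fold change of -2.08 (SE 0.26, adjusted p = 0.00229 by edgeR), or 23.6% of the control level. This call ended with limma on log2(FPKM + 1) over every gene of the tables when the variance prior followed the expression level (adjusted p = 0.511), and held without that trend (adjusted p = 0.0102).

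**Figure D1:**
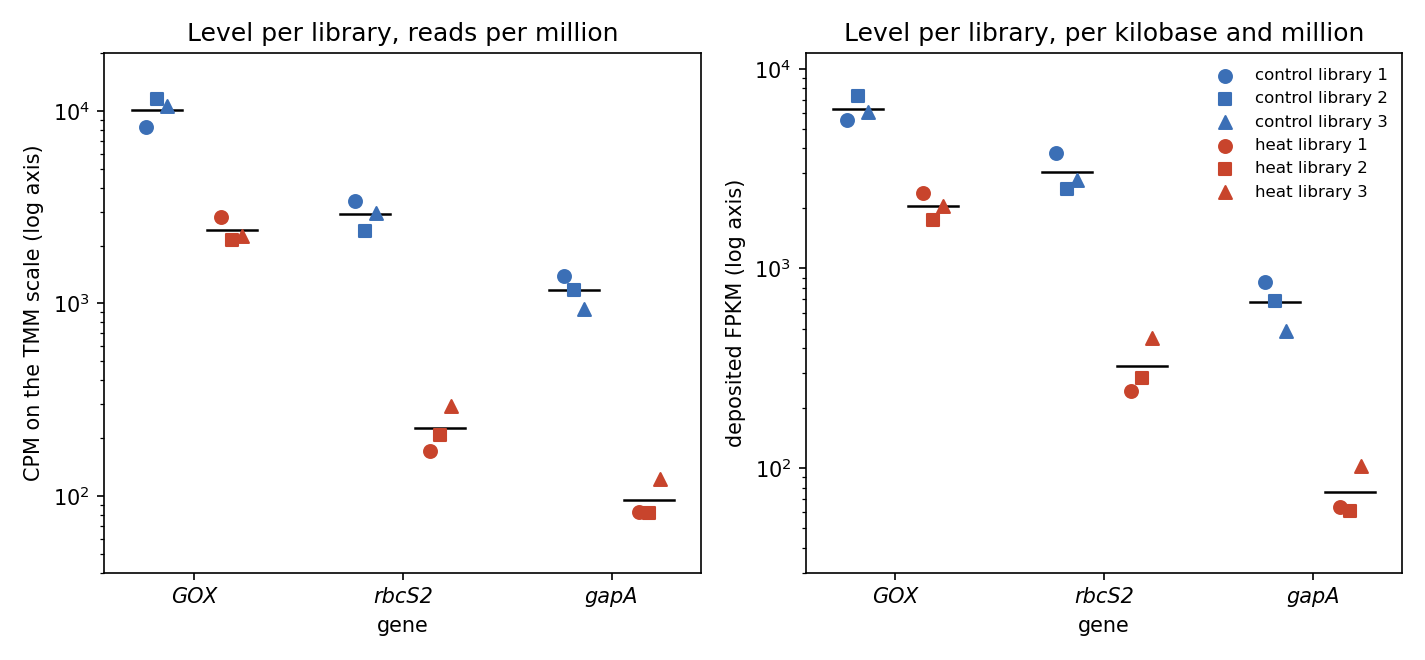
Levels of GOX, rbcS2 and gapA in each library, as CPM on the TMM scale (left) and as deposited FPKM (right), both on log axes. Points are libraries, lines are group means of 3 libraries. In both panels the heat libraries of each gene lie below all of its control libraries, and the distance is greater for rbcS2 and gapA than for GOX.

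As background, 13.6% of the 20145 genes tested were called lower in heat, and 22.3% had every heat library below every control library. Over all tested genes the log2 fold change had a median of 0.01. A log2 fold change below that of rbcS2 was found for 179 tested genes (0.889%), below that of gapA for 195 (0.968%) and below that of GOX for 933 (4.63%). Without control library 2 the share called lower was 6.92%, and without heat library 1 it was 7.51%. Scaling factors separated the regimes, from 0.778 to 0.915 in control and from 1.12 to 1.26 in heat. With libraries scaled by size alone, the median of all genes moved to 0.47, 7.30% of genes were called lower, and the share of calls that were lower went from 53.9% to 19.0%. The log2 fold changes then were -3.22 for rbcS2, -3.16 for gapA and -1.61 for GOX, all still past the threshold.

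Levels of different genes were compared per length, as FPKM (counts per length and library size), which the authors scaled by library totals alone. The lengths recovered from the 2 tables were 821 bases for rbcS2, 1491 for gapA and 1361 for GOX. GOX had 6315 ± 900 FPKM in control and 2067 ± 312 in heat, rbcS2 3027 ± 682 and 324 ± 109, and gapA 676 ± 183 and 75.7 ± 23.3 (SD, n = 3 each). The order GOX, rbcS2, gapA held in each of the 6 libraries. Within a regime, no library of one gene reached the range of its neighbour in that order.

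The place of each gene among all genes changed with its level. By FPKM, GOX ranked 18, 14 and 22 in control libraries 1 to 3 and 23, 37 and 25 in heat libraries 1 to 3, so it stayed among the most abundant transcripts. rbcS2 ranked 25, 39 and 36 in control and 431, 403 and 186 in heat. For gapA the ranks were 116, 129 and 183 in control and 1837, 1980 and 1067 in heat. Ranks do not depend on how libraries are scaled. All 3 genes ranked lower in each heat library than in any control library, with the smallest gap for GOX.

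The transcripts of rbcS2 and gapA were then compared with that of GOX as ratios of read counts within a library, which no scaling of libraries can alter. Such ratios of single genes do not measure the balance of the pathways. Per length, rbcS2 reached 0.683, 0.342 and 0.458 of the GOX level in control libraries 1 to 3. In heat libraries 1 to 3 it reached 0.102, 0.161 and 0.217. Every heat value lay below every control value. On the log2 scale the count ratio of rbcS2 to GOX was -1.80 ± 0.50 in control and -3.44 ± 0.55 in heat (SD, n = 3 each), a difference of -1.64, or 3.11-fold (exact two-sided permutation p = 0.1, adjusted p = 0.15 over 3 ratios). With 3 libraries against 3, 0.1 is the smallest p that the test can give, so no ratio could pass the threshold. Over the 9 pairs of a heat and a control library, the difference ran from -2.74 to -0.66.

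gapA also lay lower against GOX in heat. Per length it was at 0.154, 0.0936 and 0.0806 of GOX in control libraries 1 to 3. In heat libraries 1 to 3 it was at 0.0268, 0.0346 and 0.0497. The log2 count ratio was -3.12 ± 0.49 in control and -4.67 ± 0.45 in heat (SD, n = 3 each), a difference of -1.55, or 2.93-fold (exact permutation p = 0.1, adjusted p = 0.15). The groups again did not overlap. Over the pairs of libraries the difference ran from -2.52 to -0.70.

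The ratio between rbcS2 and gapA themselves showed no such gap. rbcS2 had 4.44, 3.66 and 5.68 times the FPKM of gapA in control libraries 1 to 3. In heat libraries 1 to 3 it had 3.80, 4.65 and 4.37 times as much. The regimes overlapped, with the highest and the lowest value both in control. The log2 count ratio differed by -0.09 between the regimes (exact permutation p = 0.8, adjusted p = 0.8), and by -0.58 to 0.35 over the pairs of libraries. Without control library 3 the difference was 0.08. The range over the pairs is not a confidence interval, and 3 libraries per regime do not exclude a difference in either direction.

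**Figure D2:**
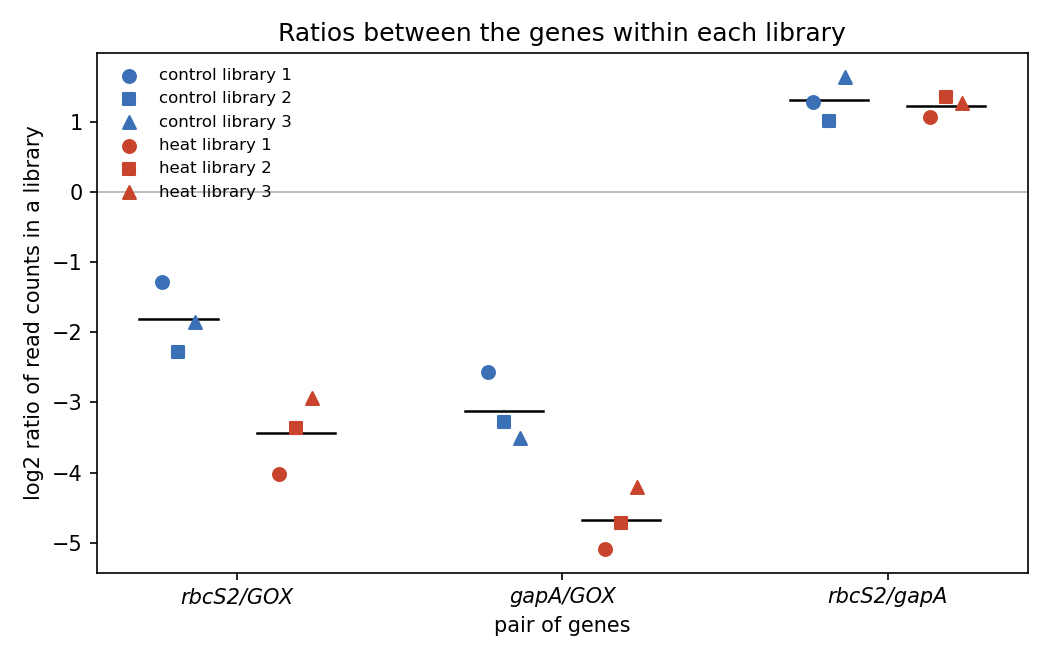
Log2 ratio of read counts within each library for rbcS2/GOX, gapA/GOX and rbcS2/gapA. Points are libraries and lines are group means of 3 libraries. The heat libraries lie below all control libraries for the ratios to GOX, with mean differences of -1.64 and -1.55, and overlap with them for rbcS2/gapA.

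The spread within a regime was not shared by all 3 genes. In control, the ratio of rbcS2 to GOX was highest in library 1, which had the most rbcS2 and gapA and the least GOX. In heat it was highest in library 3, which had the most rbcS2 and gapA, and lowest in library 1, which had the most GOX. The control libraries differed by up to 1.44-fold for rbcS2, 1.49-fold for gapA and 1.39-fold for GOX. The heat libraries differed by up to 1.70-fold, 1.5-fold and 1.31-fold.

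Other genes of both pathways were looked up by name, since the reference gene table for the BTI_SOV_V1 assembly gives names but no descriptions. Of 11 names placed in the Calvin-Benson cycle, 10 were tested. They include no chloroplast aldolase, transketolase or ribose phosphate isomerase, so the cycle is not fully covered. The plastid gene rbcL, for the large subunit of Rubisco, was not analysed here. All 10 fell in heat, rbcS2 and gapA among them, with no overlap between the regimes and a median log2 fold change of -2.68. The other 8 had a median of -2.24. For photorespiration 3 names were found, and all 3 genes fell, with a median of -2.0. Of all tested genes, 13.6% were called lower and 22.3% had no overlap in that direction. Of the 1722 tested genes with a mean of at least 100 CPM, a level that all tested list genes but FBPase and DiT1 reached, 461 (26.8%) were called lower. Most enzymes of photorespiration had no named gene, so the pathway is seen through few members, and further copies of rbcS or GOX without a name could not be told apart.

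The Calvin-Benson genes are given by stage of the cycle, an arrangement made after their values were seen. RA was taken as Rubisco activase by this short name alone. Rubisco activase frees the active site of Rubisco from inhibiting sugar phosphates. At the carboxylation stage, RA had 4343, 4409 and 3438 CPM in control libraries 1 to 3. In heat libraries 1 to 3 RA had 394, 294 and 347 CPM. Its log2 fold change was -3.56 (SE 0.24, adjusted p = 0.000382 by edgeR), close to that of rbcS2. At the reduction stage, pgk-chl, the chloroplast phosphoglycerate kinase that acts just before gapA, went from 592 ± 29.99 to 51.5 ± 11.8 CPM, with a log2 fold change of -3.52 (SE 0.23, adjusted p = 0.000382). gapB, the partner subunit of gapA in the same dehydrogenase, had 1804, 2250 and 2096 CPM in control and 252, 259 and 236 CPM in heat, with a log2 fold change of -3.04 (SE 0.19, adjusted p = 0.000362). The 5 genes of these stages thus lay between -3.69 and -3.04.

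The 5 genes placed by name at the regeneration of ribulose bisphosphate lay between -2.33 and -1.85, a range that includes the -2.08 of GOX. TPIP1, plastid triose phosphate isomerase, went from 422 ± 3.22 to 84.2 ± 16.5 CPM (log2 fold change -2.33, edgeR adjusted p = 0.000615). SBPase, sedoheptulose bisphosphatase, a step found in this cycle alone, went from 614 ± 67.7 to 138 ± 30.9 CPM (log2 fold change -2.15, adjusted p = 0.00122). RPE, ribulose phosphate epimerase, went from 481 ± 56.0 to 129 ± 20.0 CPM, a log2 fold change of -1.90. PRK, phosphoribulokinase, which makes the CO2 acceptor, went from 435 ± 38.8 to 121 ± 4.85 CPM, a log2 fold change of -1.85. The adjusted p was 0.00106 for RPE and 0.000615 for PRK.

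FBPase, a fructose bisphosphatase placed in the cycle by a name that does not state its compartment, was the least certain of the 10. It had 108, 42.7 and 34.7 CPM in control libraries 1 to 3 and 14.5, 10.003 and 19.8 CPM in heat libraries 1 to 3. Control library 1 stood well above the rest. The log2 fold change was -2.07 (SE 0.48, adjusted p = 0.0207 by edgeR) and became -1.39 without control library 1. The call ended when heat library 1 (adjusted p = 0.0797) or heat library 2 (adjusted p = 0.0660) was left out. It also ended in limma fits of log2(FPKM + 1), at an adjusted p of 0.0541 over the same genes and of 0.187 and 0.216 over every gene of the tables.

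**Figure D3:**
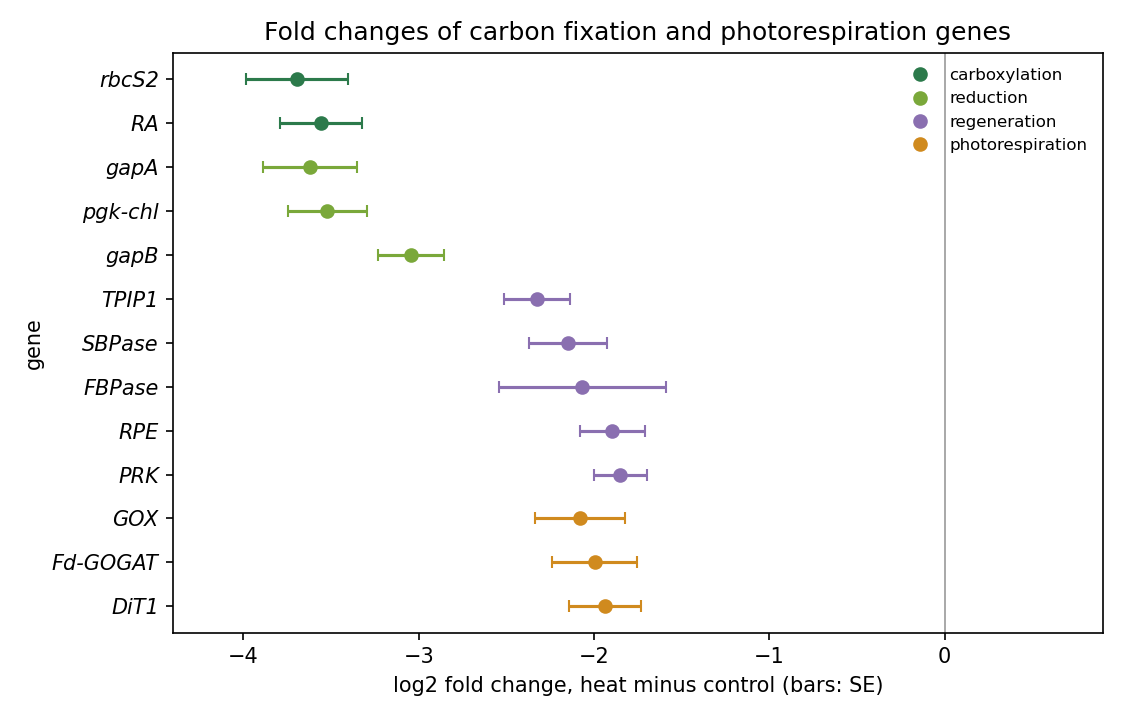
Log2 fold change, heat minus control, of the 10 tested Calvin-Benson genes and the 3 photorespiration genes, coloured by stage. Points are edgeR estimates from 3 libraries per regime and bars are 1 SE. Carboxylation and reduction genes lie between -3.69 and -3.04, regeneration genes between -2.33 and -1.85 and photorespiration genes between -2.08 and -1.94.

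The photorespiration genes other than GOX had log2 fold changes near that of GOX. Fd-GOGAT is the ferredoxin-dependent glutamate synthase, which takes part in recovering the nitrogen released by photorespiration. It had 2088, 2575 and 1774 CPM in control libraries 1 to 3 and 641, 431 and 542 CPM in heat libraries 1 to 3. Its log2 fold change was -2.0 (SE 0.24, adjusted p = 0.00223 by edgeR). The gene called DiT1 here, a dicarboxylate transporter of the chloroplast envelope, carries both DiT1 and DIT2 as names in the reference table, so which of these transporters it encodes is uncertain. It had 9.48 ± 1.95 CPM in heat, against 36.4 ± 5.50 CPM in control. This gave a log2 fold change of -1.94 (SE 0.21, adjusted p = 0.00137). The log2 count ratio of GOX to Fd-GOGAT was 2.24 ± 0.31 in control and 2.16 ± 0.14 in heat, with overlapping libraries.

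Set against GOX within each library, the stages, arranged after the values were seen, lay apart. These ratios restate the fold changes given above relative to that of GOX, so they are no separate support for the arrangement. For all 5 genes of carboxylation and reduction, the count ratio to GOX was lower in every heat library than in any control library, with mean log2 differences from -1.64 for rbcS2 to -0.96 for gapB. For the 5 regeneration genes the regimes overlapped, with differences from -0.27 for TPIP1 to 0.23 for PRK. They also overlapped for Fd-GOGAT (0.08) and DiT1 (0.13). Each of the 5 separated genes had an exact permutation p of 0.1, the smallest possible, and an adjusted p of 0.24 over the 12 genes compared. Across all tested genes, 1.38% had a lower ratio to GOX in every heat library than in any control library, and 82.6% had a higher one in every heat library, since GOX itself was lower.

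**Figure D4:**
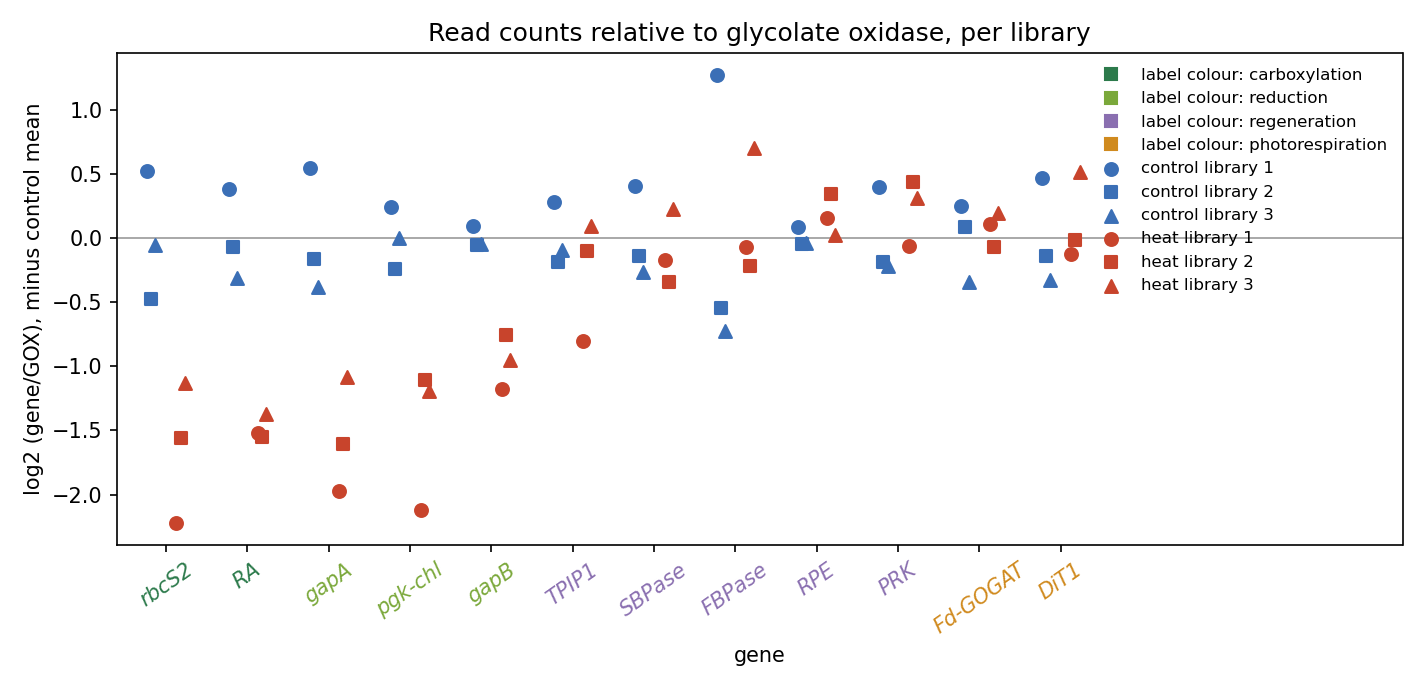
Log2 ratio of each gene's read count to that of GOX in each library, shown as the difference from the gene's control mean. Colours of points mark the regime, shapes the library, and colours of gene names the stage. The heat libraries of rbcS2, RA, gapA, pgk-chl and gapB lie below all their control libraries, while those of the other 7 genes overlap with control.

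The same ratios were taken against the other photorespiration genes, whose fold changes were near that of GOX, so that similar differences follow from the values already given. Against Fd-GOGAT the mean log2 ratio differed by -1.72 for rbcS2 and by -1.63 for gapA between the regimes, and against DiT1 by -1.77 and -1.68. In all 4 ratios the libraries of the regimes did not overlap (exact permutation p = 0.1 each, adjusted p = 0.175 over the 7 further ratios computed).

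gapA was compared with gapB, and rbcS2 with RA, in the same way. Per length, gapA was at 0.864, 0.586 and 0.5001 of gapB in control libraries 1 to 3 and at 0.366, 0.352 and 0.577 in heat libraries 1 to 3. Heat library 3 thus lay within the control range, and the log2 difference of -0.59 had an exact permutation p of 0.2 (adjusted p = 0.28). rbcS2 had 1.66, 1.14 and 1.80 times the FPKM of RA in control and 0.924, 1.498 and 1.78 times in heat. The regimes overlapped, with a log2 difference of -0.16 (exact permutation p = 0.6, adjusted p = 0.7).

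Summed over the 10 Calvin-Benson genes, the level was 9510, 8047 and 7053 FPKM in control libraries 1 to 3 and 1163, 1086 and 1451 FPKM in heat libraries 1 to 3. The sum was 1.71, 1.10 and 1.16 times the FPKM of GOX in control, above GOX in each library. In heat it was 0.489, 0.618 and 0.703 times the FPKM of GOX, below it in each library. The sum leaves out rbcL and any copies of rbcS without a name. Its position above or below GOX thus describes these 10 genes alone, not the whole cycle. rbcS2 alone made up 39.9%, 31.1% and 39.4% of the sum in control and 20.9%, 26.0% and 30.8% in heat.

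Among 118 other genes with a reference name and a mean of at least 10 CPM, the patterns most like those of the 3 genes were found by the root mean square difference of log2 CPM over the 6 libraries, after each gene was centred on its own mean. The nearest to rbcS2 was gapA (0.21), followed by pgk-chl (0.23) and lhcb1.3 (0.28), a light-harvesting protein of photosystem II. The nearest to gapA was lhcb1.3 (0.18), followed by rbcS2 (0.21) and RA (0.23). The nearest to GOX was RPE (0.14), followed by cTPT (0.18), the triose phosphate translocator that exports fixed carbon from the chloroplast, and Trx-M (0.19), a chloroplast thioredoxin. By the same measure GOX was at 0.92 from rbcS2 and at 0.86 from gapA. The median over all candidates was 1.46 for rbcS2, 1.42 for gapA and 0.73 for GOX. The candidates were a small part of the 20145 tested genes and included the other 12 list genes. Which genes could come out nearest thus depended on which genes have a name. The measure gives weight to the difference between regimes, and all points share the same 6 libraries.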

How the data were processed

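Per the labels' protocols, RNA was isolated with TRIZOL and libraries followed a standard Illumina procedure. The authors deposited raw read counts per gene, from 42.3 to 56.8 M per library, and FPKM values. In all 24889 genes with a read, the FPKM equalled the count divided by a fixed length and the library total (relative tolerance 1e-06). The submitters' processing notes name DESeq 1.18.0, HTSeq 0.9.1 and HISAT2 2.0.4. The sources used here do not name the build, annotation, strand setting or treatment of multiply aligned reads, so reads of near-identical rbcS copies could have been split or dropped. No coordinates are printed, because the reference table's assembly may differ from the authors' build.

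Counts were tested with edgeR 4.0.16 (quasi-likelihood, TMM, its own filter, group as the only term, all 6 libraries), two-sided, with Benjamini-Hochberg adjustment over 20145 genes and a threshold of 0.05. SE is the size of the log2 fold change divided by the square root of F. Alternatives used DESeq2 1.42.0 and limma 3.58.1. Ratios of deposited counts were compared by exact permutation (scipy 1.17.1). Of 30732 NCBI Gene numbers, 25304 matched the reference table. All tested genes of the 2 name lists are named, with the 3 nearest patterns per gene. The members and lists were chosen with earlier results of these data known. Comparing related protein sequences and promoters was planned and not done here.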

Additional observations from a re-analysis of the deposited data

How the results depend on the processing

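Under 15 alternatives (scaling, filter, tool, table, block and each library left out), rbcS2 and gapA stayed past the threshold, with log2 fold changes from -3.93 to -3.22 and from -3.84 to -3.15. GOX ranged from -2.21 to -1.61 and missed it in the limma fit of log2(FPKM + 1) over every gene of the tables (log2 fold change -1.61, adjusted p = 0.511), an alternative chosen after seeing the data, as was the same fit without a trend; the cause was not tested. The Calvin-Benson list had 9 or 10 genes lower and the photorespiration list 2 or 3. Leaving out each library, the log2 difference ran from -1.89 to -1.35 for rbcS2/GOX, from -1.79 to -1.28 for gapA/GOX and from -0.24 to 0.079 for rbcS2/gapA, whose sign changed without control library 3.

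Over all genes, 5074 were called, 7759 under library size alone and 8012 with limma on log2(FPKM + 1), and from 2291 (without control library 2) to 4355 with a library left out. The regimes share replicate numbers, and deviations of same-numbered libraries correlated at -0.126, -0.163 and -0.324. Those of differently numbered libraries ran from -0.211 to 0.309. With deviations taken from the mean of 3 libraries, these values cannot settle whether the numbers pair the samples. With the replicate number as a block, 2628 genes were called, and the log2 fold changes were -3.71 for rbcS2, -3.63 for gapA and -2.08 for GOX. Blocked ratios kept their means, with exact p of 0.25, 0.25 and 0.75, where 0.25 is the smallest p that 3 pairs can give. Families of related proteins were not run, as no protein sequences were used here. Depth does not limit the 3 genes, but 3 libraries per regime limit every ratio test.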
